A study of Oryctolagus cuniculus with 8 samples.

Results

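The miR-99/100 and miR-125 families were followed in the small RNA of vesicles taken from uterine and oviductal fluid of rabbits. Members were taken by name, as every mature miRNA called miR-99a, miR-99b, miR-100, miR-125a or miR-125b, from either arm of the hairpin. That list was drawn up with earlier results of these data known. The table held 7 such names on 8 rows, among 579 names on 615 rows in all. These were both arms of miR-99a and miR-100, and miR-125b-5p, miR-125b-3p and miR-125b-2-3p, while miR-99b and miR-125a were not analysed here. Names below drop the species prefix of the table, as in ocu-miR-99a-5p and ocu-miR-125b-5p. Of the 7 names, 5 had reads, and all 5 passed the filter on low counts that left 178 miRNAs for testing.

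The uterine group had 3 libraries of 5 pooled animals each, and the oviductal group had 5 libraries of 3 pooled animals each. All animals were wild-type multiparous does of a California x New Zealand white cross, 21 in number. Every doe received 25 IU of eCG, a gonadotropin, then 20 µg of a GnRH analogue after 48 h, and tracts were flushed 14 to 15 h later. The flush volume was 1 mL for oviductal and 2.2 mL for uterine libraries, so volume and pool size cannot be told apart from the fluid. The pools offer more places than there were does, so pools may share animals, and p-values measure the spread between pools only. Libraries are named by group and replicate, and the uterine library titled 12 carries the number 1 in its library name. The labels do not say whether that library joins more than 1 pool. Depth was 232546 to 479865 miRNA reads in the uterine libraries and 42684 to 569087 in the oviductal ones.

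MicroRNAs are short RNAs that guide Argonaute proteins to messenger RNAs and lower their output, chiefly through the seed, the bases near their 5′ end. Usually 1 arm of the hairpin is loaded and the other is degraded. The miR-99/100 family is known for lowering mTOR and the IGF1 receptor in human cells. The miR-125 family is the vertebrate relative of lin-4, the first microRNA found in the worm, and is known for lowering LIN28. In vertebrates both families lie in clusters with a let-7 miRNA. In the RefSeq gene table of assembly mOryCun1.1, where all 4 member precursors were found, MIR99A, MIRLET7C and MIR125B-2 followed each other as neighbouring miRNA genes on chromosome 4. MIR100, MIRLET7A-2 and MIR125B-1 did so on chromosome 1. Mature miR-99a and miR-100 have nearly the same sequence, and no source used here says how the authors' counting divided reads between them.

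The leading member, miR-99a-5p, was abundant and even in oviductal vesicles and widely scattered in uterine ones. Levels are read counts scaled to a library total of 1000000 miRNA reads (CPM). It stood at 8506, 34443 and 82783 CPM in uterine replicates 12, 3 and 4. In oviductal replicates 1 to 5 it stood at 95703, 70927, 78765, 87117 and 89285 CPM. Uterine replicate 4 lay inside the oviductal range, and uterine replicates 12 and 3 lay below it. In such bulk preparations fewer vesicles from a cell type and less of a miRNA per vesicle cannot be told apart. By abundance miR-99a-5p was second in each of the 5 oviductal libraries, after miR-148a-3p, and 15th, 4th and 2nd in uterine replicates 12, 3 and 4.

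The other detected member of that family, miR-100-5p, had a different order of uterine libraries. It was at 2193, 7075 and 2478 CPM in uterine replicates 12, 3 and 4. The oviductal values were 5907, 6408, 4873, 5672 and 7449 CPM in replicates 1 to 5. Uterine replicate 3 was above 4 of the 5 oviductal libraries, and the other two uterine libraries were below all of them. The opposite arms, miR-99a-3p and miR-100-3p, had 0 reads in every library, which over all 2359229 reads allows up to 1.27 CPM by a floor of 3 reads. Against that floor the 5p arm had at least 54869-fold more reads for miR-99a and at least 4477-fold more for miR-100. Names with 0 reads were common here, as only 354 of all 579 names had a read.

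Of the miR-125 family, miR-125b-5p was at 1531, 2171 and 5973 CPM in uterine replicates 12, 3 and 4. In oviductal replicates 1 to 5 it was at 5766, 6555, 7099, 8276 and 6080 CPM. As for miR-99a-5p, uterine replicate 4 lay among the oviductal libraries and the other two lay below them. This miRNA comes from a pair of precursors, and the deposited rows for them held 11866 reads for mir-125b-1 and 11618 for mir-125b-2, nearly equal in every library. The rows therefore do not tell the precursors apart, and the row with more reads was used.

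The 3p arms do differ between the precursors. From mir-125b-1, miR-125b-3p was at 649, 379 and 130 CPM in uterine replicates 12, 3 and 4. In oviductal replicates 1 to 5 it was at 525, 42.0, 117, 605 and 395 CPM. Here uterine replicate 12, lowest for the 5p arm, was the highest of all 8 libraries, and uterine replicate 4 was the lowest of its group. From mir-125b-2, miR-125b-2-3p had 0, 22 and 22 reads in uterine replicates 12, 3 and 4. The oviductal reads were 19, 2, 4, 1 and 60 in replicates 1 to 5. A count of 0 in uterine replicate 12 allows up to 12.9 CPM by the floor of 3 reads. Oviductal replicates 2 and 3 are the shallowest libraries, and their 2 and 5 reads of miR-125b-3p leave its level there poorly determined, with exact 95% binomial intervals of 5.09 to 152 and 38.0 to 273 CPM. Intervals and floors cover counting error only.

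**Figure D1:**
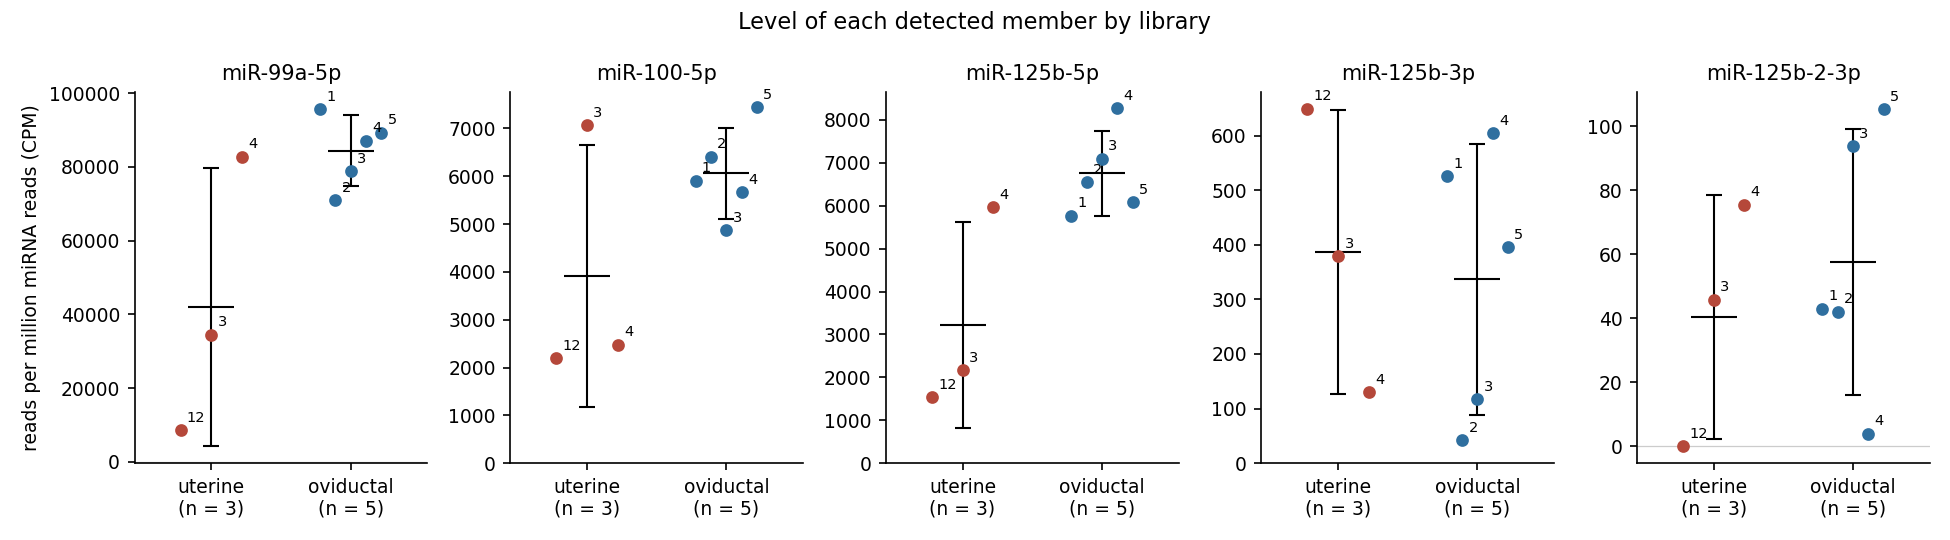
Level of each detected member by library, in CPM on linear axes. Points are libraries with their replicate number, and black bars are the mean ± SD of 3 uterine and 5 oviductal libraries. For miR-99a-5p the oviductal libraries lie between 70927 and 95703 CPM and the uterine ones between 8506 and 82783 CPM.

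Ordered by level, miR-99a-5p came first in both groups, at 41911 ± 37697 CPM (SD) in the 3 uterine libraries and 84359 ± 9647 CPM (SD) in the 5 oviductal ones. Next came miR-100-5p at 3915 ± 2740 and miR-125b-5p at 3225 ± 2401 CPM in uterine vesicles (SD, n = 3). In oviductal vesicles miR-125b-5p was at 6755 ± 988 and miR-100-5p at 6062 ± 953 CPM (SD, n = 5). Those neighbours differed by less than the spread between libraries in either group. Then followed miR-125b-3p, at 386 ± 260 CPM (SD) in the 3 uterine libraries and 337 ± 248 CPM (SD) in the 5 oviductal ones. Last was miR-125b-2-3p, at 40.5 ± 38.0 CPM (SD) in the 3 uterine libraries and 57.6 ± 41.6 CPM (SD) in the 5 oviductal ones. Efficiency of adapter ligation differs between miRNA sequences, so an order of read counts need not be an order of molecules.

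No member passed the test between the fluids. Counts were compared with edgeR (quasi-likelihood test on TMM-scaled counts, Benjamini-Hochberg adjusted over 178 miRNAs, threshold 0.05). None of the 5 tested members was past the threshold and none had an unadjusted edgeR p under 0.05, where 1.69% of all tested miRNAs were past it and 28 had an unadjusted p under 0.05. DESeq2 and limma-voom called none of the members either. Before adjustment, however, miR-125b-5p passed 0.05 by DESeq2 (adjusted p 0.221), and miR-99a-5p did so by limma-voom without and with quality weights (limma adjusted p 0.152 and 0.272). The log2 fold change of uterine over oviductal was -0.83 ± 0.49 (SE) for miR-99a-5p, with an edgeR adjusted p of 0.461 and a 95% interval of -1.85 to 0.19. For miR-125b-5p it was -0.85 ± 0.46 (SE), with an edgeR adjusted p of 0.426 and an interval of -1.81 to 0.11. Both intervals hold 0 and reach far below it, so these libraries neither show a loss in uterine vesicles nor bound one tightly. The SE was derived from the log2 fold change and the edgeR test statistic, in a fit where both groups share an estimate of the spread. The uterine libraries scattered more for both miRNAs, as given below, so these intervals may be too narrow.

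The other members were farther from the threshold. The log2 fold change was -0.09 ± 0.52 (SE) for miR-100-5p, 0.59 ± 0.86 for miR-125b-3p and -0.18 ± 1.41 for miR-125b-2-3p, with edgeR adjusted p of 0.978, 0.825 and 0.978. Of the 5 values, 1 was positive and 4 were negative, with a median of -0.18, beside a median of -0.02 over all 178 tested miRNAs, of which 87 were positive and 91 negative. For none of the members were the CPM of the groups free of overlap, against 14.6% of all tested miRNAs.

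For the 3 abundant members the uterine libraries scattered more widely than the oviductal ones. On the scale of log2(CPM + 1), the SD of miR-99a-5p was 1.66 between uterine and 0.17 between oviductal libraries. The SD of miR-125b-5p was 1.02 between uterine and 0.20 between oviductal libraries, and that of miR-100-5p was 0.93 between uterine and 0.23 between oviductal libraries. Across the 57 tested miRNAs with a mean of at least 1000 CPM, the median SD was 0.92 between uterine and 0.42 between oviductal libraries, and 44 of the 57 scattered more in the uterine group. Within these 57, 3 had a smaller oviductal SD than miR-99a-5p and 7 a larger uterine SD. The scatter of miR-100-5p and miR-125b-5p in the uterine group was near that median. These SDs are descriptions of 3 and 5 libraries, and their difference was not tested.

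**Figure D2:**
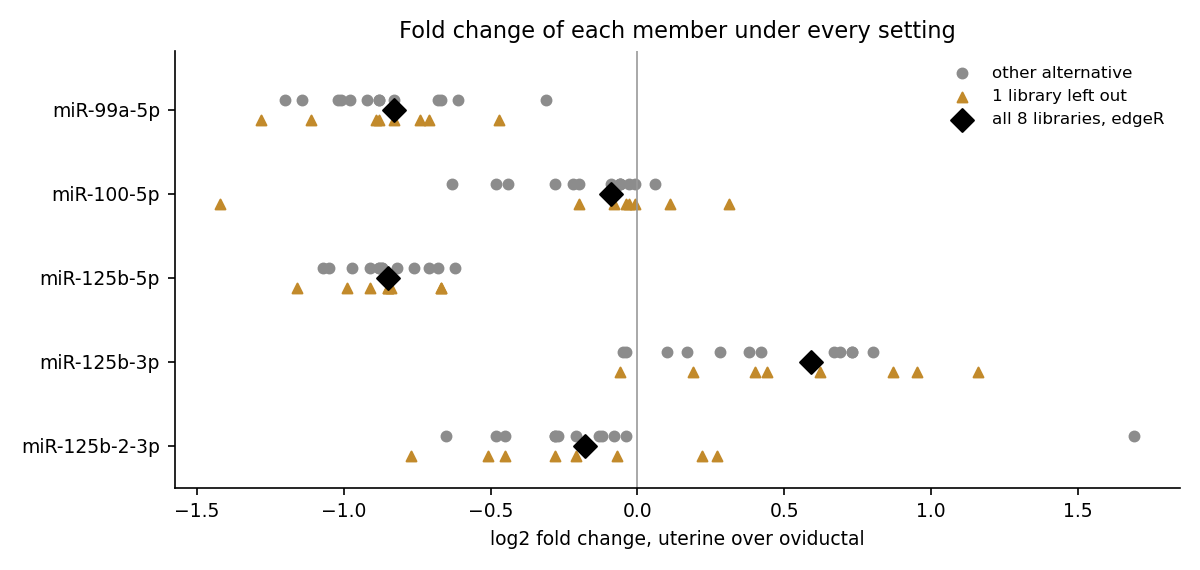
Log2 fold change of uterine over oviductal for each member, with all 8 libraries (diamonds), with 1 library left out (triangles) and under the other alternatives (circles). All 22 values of miR-99a-5p and of miR-125b-5p lie below 0, between -1.28 and -0.31 and between -1.16 and -0.62, and the other 3 members have values on both sides.

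Under every alternative tried miR-99a-5p and miR-125b-5p kept a negative sign, and the sign of the other 3 members turned when single libraries were left out. Without uterine replicate 12 the log2 fold change of miR-99a-5p was -0.47 (edgeR adjusted p 0.804), and without uterine replicate 4 it was -1.28 (0.152). Over all 21 alternatives it ran from -1.28 to -0.31, with adjusted p of 0.152 to 0.998. For miR-100-5p the value was -1.42 without uterine replicate 3 (edgeR adjusted p 0.065), 0.31 without uterine replicate 4 (0.755) and 0.11 without uterine replicate 12 (0.985). Its adjusted p ran from 0.065 to 0.998 over the alternatives. No alternative brought any member past the threshold.

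As a share of all miRNA reads, miR-99a-5p and miR-100-5p together held 1.07%, 4.15% and 8.53% in uterine replicates 12, 3 and 4. In oviductal replicates 1 to 5 they held 10.2%, 7.73%, 8.36%, 9.28% and 9.67%. The means were 4.58% ± 3.75 in uterine (SD, n = 3) and 9.04% ± 0.985 in oviductal vesicles (SD, n = 5). Shares depend on what else fills a library, and miR-148a-3p alone took 47.6%, 54.4% and 29.2% of reads in uterine replicates 12, 3 and 4. With that miRNA left out of the total, the pair held 2.04%, 9.10% and 12% in these uterine libraries and 11.5% to 16.1% in the oviductal ones. Uterine replicates 12 and 3 stayed below the oviductal range and uterine replicate 4 stayed inside it.

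Ratios of members within a library do not depend on its total. Of all member reads, miR-99a-5p made up 86.4% ± 1.53 in oviductal libraries (SD, n = 5), while the 3p arms varied more, with miR-125b-2-3p at 0.00386% to 0.103%. In uterine replicates 12, 3 and 4 that portion was 66.0%, 78.1% and 90.5%. The ratio of miR-125b-5p to miR-99a-5p was 0.180, 0.0630 and 0.0721 in uterine replicates 12, 3 and 4. It was 0.0603 to 0.0950 in the oviductal libraries, so 2 uterine libraries lay inside that range and uterine replicate 12 above it. The mean log2 ratio was -3.42 ± 0.82 in uterine (SD, n = 3) and -3.65 ± 0.30 in oviductal vesicles (SD, n = 5). The difference of 0.23 did not pass an exact two-sided permutation test over 56 splits (p = 0.607, where the smallest possible is 0.0357).

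Within the miR-99/100 family the proportions differed from library to library in the uterus. The ratio of miR-100-5p to miR-99a-5p was 0.258, 0.205 and 0.0299 in uterine replicates 12, 3 and 4. It was 0.0617 to 0.0903 in the oviductal libraries. All 3 uterine libraries were outside the oviductal range, 2 above and 1 below, and their exact 95% binomial intervals, 0.233 to 0.284, 0.198 to 0.213 and 0.0278 to 0.0322, do not reach it. Likewise the ratio of miR-125b-5p to miR-100-5p was 0.698, 0.307 and 2.41 in uterine replicates 12, 3 and 4, beside 0.816 to 1.46 in the oviductal libraries. Both of these ratios were chosen after their values were seen and carry no test.

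**Figure D3:**
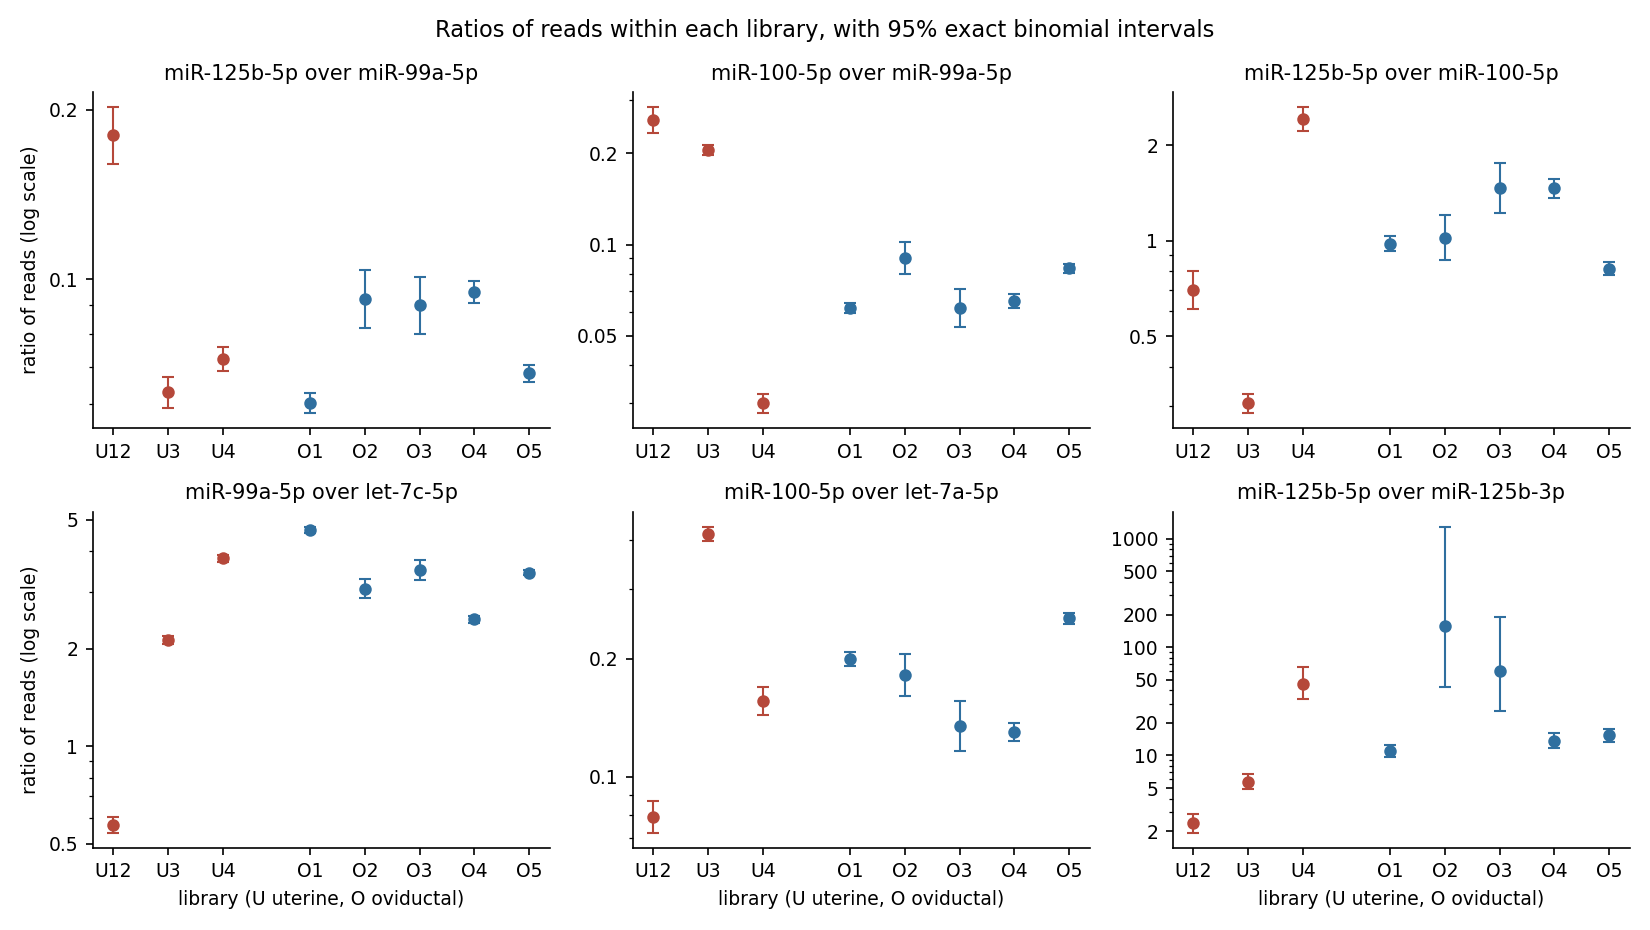
Ratio of reads of a pair of miRNAs within each library, on log axes, with 95% exact binomial intervals for counting error. Uterine libraries (red, left) spread more widely than oviductal ones (blue, right) in the ratio of miR-100-5p to miR-99a-5p, from 0.0299 to 0.258 against 0.0617 to 0.0903.

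The let-7 miRNAs of the clusters were compared with the members beside which their genes lie. The neighbour of MIR99A, let-7c, had its 5p arm at 14870, 16190 and 21749 CPM in uterine replicates 12, 3 and 4, and at 20551 to 35288 CPM in the oviductal libraries. The ratio of miR-99a-5p to let-7c-5p was 0.572, 2.13 and 3.81 in uterine replicates 12, 3 and 4, beside 2.47 to 4.66 in the oviductal libraries. Thus uterine replicate 12 had few reads of miR-99a-5p relative to let-7c-5p as well as relative to the total. The ratio of miR-100-5p to let-7a-5p was 0.0790, 0.416 and 0.156 in uterine replicates 12, 3 and 4, beside 0.130 to 0.253 in the oviductal libraries. The let-7a-5p reads are a loose comparison, because the same mature sequence comes from 3 precursors in the table and let-7 sequences are nearly identical.

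Relatives of the families outside the members had no call in the main fit either. The list was let-7a, let-7c and let-7e of the clusters with miR-10a and miR-10b, which share ancestry with miR-99/100, both arms. Of these let-7e was not analysed here, 8 of the 9 other names had reads, and 7 were tested. None passed over all miRNAs in the main edgeR fit, by DESeq2 or by limma-voom. Under 4 of the 21 alternatives, all of them edgeR fits, 1 or 2 of the relatives did. These were upper-quartile factors, no filter, at least 10 reads in every library, and leaving out uterine replicate 3. By edgeR 4 had positive and 3 negative log2 fold changes with a median of 0.04, and 2 had an unadjusted p under 0.05. The log2 fold change was 1.22 ± 0.37 (SE) for miR-10b-5p and 1.07 ± 0.38 (SE) for miR-10a-5p, with edgeR adjusted p of 0.107 and 0.163. In the same fit let-7c-5p was at -0.18 ± 0.39 and let-7a-5p at -0.33 ± 0.41 (SE), with edgeR adjusted p of 0.894 and 0.802. The ratio of miR-99a-5p to miR-10b-5p was 0.171, 1.21 and 1.08 in uterine replicates 12, 3 and 4 and 2.32 to 6.77 in the oviductal libraries. That pair was chosen after the values were seen, so no test is given. Of single tested miRNAs, 14.6% had CPM free of overlap between the groups, and the share over pairs of miRNAs was not computed.

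The profiles of miR-99a-5p and miR-125b-5p over the 8 libraries were close to each other. Likeness was the root mean square difference of log2(CPM + 1) after the mean over libraries was taken off, and it was 0.48 for this pair. It was 0.94 between miR-99a-5p and miR-100-5p and 0.83 between miR-125b-5p and miR-100-5p. Between miR-125b-5p and miR-125b-3p it was 1.82. The 4 miRNAs nearest to miR-99a-5p were let-7d-5p at 0.25, miR-181a-5p at 0.27, miR-28-3p at 0.42 and miR-191-5p at 0.47, with miR-125b-5p next in order. Those nearest to miR-125b-5p were miR-92a-3p and miR-221-3p at 0.38, miR-423-3p at 0.42 and let-7d-5p at 0.44, with miR-99a-5p 7th in order. The cluster neighbour let-7c-5p was 23rd for miR-99a-5p and 12th for miR-125b-5p, at 0.89 and 0.54. All these profiles share library totals, and a low value in uterine replicate 12 is common to miR-99a-5p and each of its 4 nearest. Without that library 2 of the 4 nearest to miR-99a-5p and 1 of the 4 nearest to miR-125b-5p were the same.

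**Figure D4:**
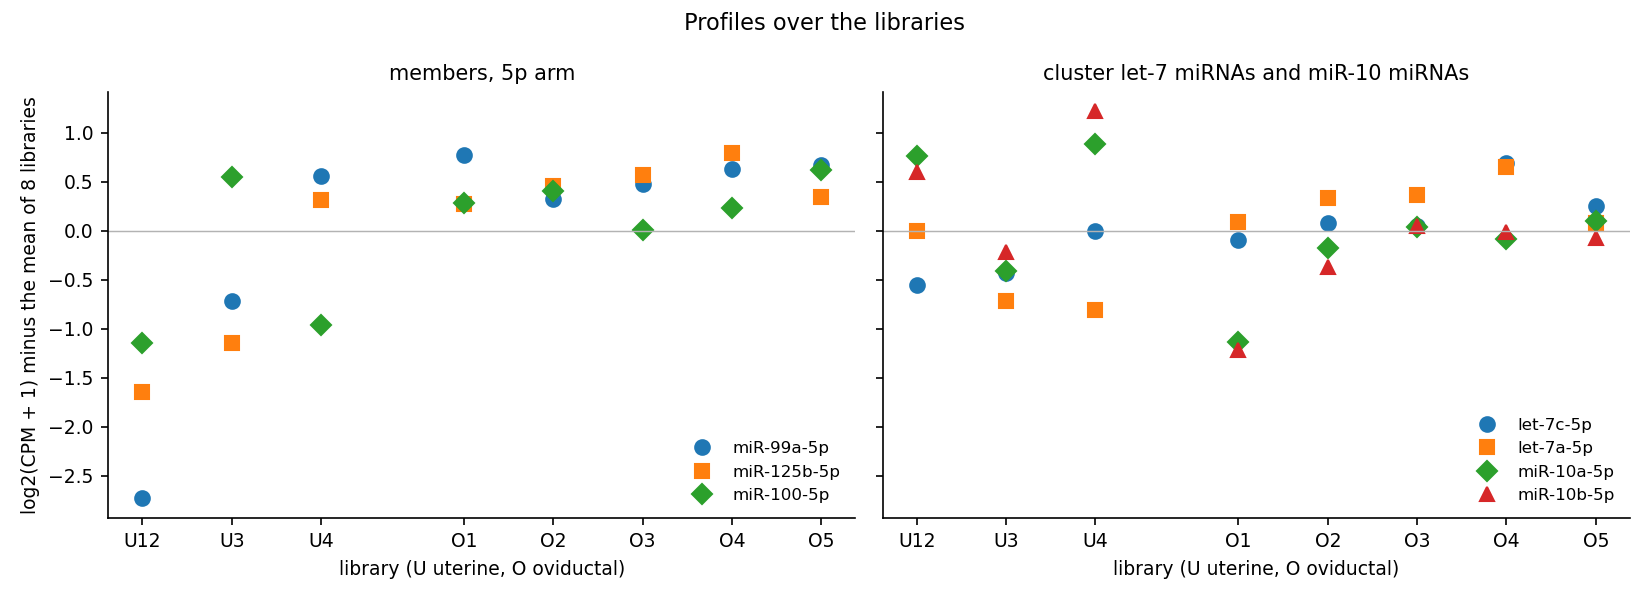
Profiles of the 5p members (left) and of let-7 and miR-10 relatives (right) over the libraries, as log2(CPM + 1) minus the mean of the 8 libraries. In uterine replicate 12 miR-99a-5p stands at -2.73 and miR-125b-5p at -1.64, while miR-10a-5p stands at 0.76 and let-7c-5p at -0.55.

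The ratio of miR-125b-5p to miR-125b-3p reads varied widely. Because miR-125b-5p reads do not tell the 2 precursors apart while miR-125b-3p is from mir-125b-1, this is not the balance of 1 hairpin. There were 2.36, 5.73 and 45.8 reads of miR-125b-5p for each read of miR-125b-3p in uterine replicates 12, 3 and 4. In oviductal replicates 1 to 5 there were 11, 156, 60.6, 13.7 and 15.4. The value of 156 rests on 2 reads of the 3p arm, with an exact 95% binomial interval of 42.8 to 1290. Uterine replicates 12 and 3 lay below all oviductal libraries, and the high oviductal values came from the shallow replicates 2 and 3. The mean log2 ratio, with a pseudocount of 0.5, was 3.08 in uterine and 4.78 in oviductal vesicles, a difference of -1.70 ± 1.23 (SE). It did not pass limma over 44 precursors (adjusted p 0.548), of which none passed and 4 had an unadjusted p under 0.05, so 0% were called. Without both shallow libraries, an alternative added once the data had been seen, the difference was -0.64 (limma adjusted p 0.963), and without uterine replicate 12 it was -0.78 (0.887). Without uterine replicate 4 it was -2.91 (0.31), and over its 12 alternatives the limma adjusted p ran from 0.31 to 0.965. The 3p arms of the 2 precursors were in different proportion over the uterine libraries. There were 0, 22 and 22 reads of miR-125b-2-3p beside 151, 182 and 38 reads of miR-125b-3p in uterine replicates 12, 3 and 4, a ratio of 0, 0.121 and 0.579. The oviductal ratios ran from 0.00649, with 1 read of miR-125b-2-3p and an interval of 0.000163 to 0.0367, to 1.00, with 2 reads of each arm and an interval of 0.0725 to 13.8. No order between the fluids can be read from them.

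Marker miRNAs of cells that line or surround the tract also differed between the libraries. Epithelial names (miR-200c, miR-141, miR-205 and miR-375, 4 of the 7 names listed, 6 of 8 arms with reads) held 0.722%, 3.02% and 1.98% of reads in uterine replicates 12, 3 and 4 and 5.42% to 6.19% in oviductal libraries. Most epithelial reads were miR-200c-3p and miR-375-3p. In uterine replicate 12, the library lowest in miR-99a-5p, the epithelial miR-205-5p was at 0 reads. The epithelial miR-141-3p did not share the lower uterine level, with means of 906 CPM in uterine and 891 CPM in oviductal libraries. Its log2 fold change was 0.30 ± 0.62 (SE), with an edgeR adjusted p of 0.894. Muscle names (miR-143, miR-145, miR-1, miR-133a and miR-133b, 6 of 10 arms with reads) held 2.54%, 0.560% and 4.69% in uterine replicates 12, 3 and 4 and 0.381% to 0.471% in oviductal libraries. Erythrocyte names (4 of 5 arms with reads) held 0.123% to 0.768% in uterine and 0.0922% to 0.288% in oviductal libraries, and leukocyte names (6 of 10) held 0.0786% to 0.367% in uterine and 0.102% to 0.245% in oviductal libraries. The epithelial share and miR-99a-5p were both lowest in uterine replicate 12, whereas the muscle share and miR-99a-5p were both highest of the uterine group in replicate 4. Most muscle reads were miR-143-3p, at 5185, 2272 and 12913 reads in uterine replicates 12, 3 and 4, while miR-1-3p ran the other way, with 540, 362 and 35 reads. The muscle miRNA miR-133a-3p had 3, 4 and 10 reads there, and 36 and 11 in oviductal replicates 1 and 2. The part of these cell types in the member levels was not tested.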

How the data were processed

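Small RNA libraries of 3 uterine and 5 oviductal vesicle preparations were analysed. The deposited table holds raw counts of reads for each mature miRNA of each precursor. It also holds RPM that the authors derived as reads per 1000000 of a column's sum (largest difference 0.005 on recomputation). Per the submitters' processing notes reads were handled with FastQC and the genome build OryCun2.0, and no source used here names the aligner or counter. Of rows with the same name, that with most reads was used. CPM were computed over 1 row per name and not scaled by TMM. Tests used edgeR 4.0.16, limma 3.58.1 and DESeq2 1.42.0 in R 4.3.3, with filterByExpr and Benjamini-Hochberg adjustment over all tested miRNAs. The edgeR fit and the limma fit of arm ratios were run on simulated counts, while DESeq2 and limma-voom were not. The planted changes were larger than the member differences, so power for changes of that size was not measured. Arm ratios needed 10 reads over both arms in every library. Members and lists were chosen with earlier results of these data known. All detected members, the relatives and the 4 nearest profiles were named by rule. Gene neighbours come from RefSeq on another build, so no coordinates are given.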

Additional observations from a re-analysis of the deposited data

Results flagged for a closer look

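1 value stood far from the others of its group. The ratio of miR-99a-5p to miR-10b-5p reads was 6.77 in oviductal replicate 1, where the next highest oviductal library had 2.86, a gap of 0.877 of the group's range against a critical value of 0.71 for 5 libraries. Of 14 levels and ratios examined in this way it was the only one, and chance flags about 1 in 20 groups. In that library miR-10b-5p was at 14144 CPM, the lowest of the 8 libraries.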

How the results depend on the processing

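The count of 0 members past the threshold held under all 21 alternatives, and miR-99a-5p and miR-125b-5p kept their direction. Over all miRNAs the count of 3 was 1 with library totals only, 6 with upper-quartile factors, 13 with no filter, 8 with a minimum of 10 reads per library, 7 with repeated rows summed, 11 by DESeq2, 1 by limma-voom and 0 without both shallowest libraries (20 at an unadjusted p under 0.05). With a replicate block, by title or by library-name numbers, it was 0 (8 and 11 at an unadjusted p under 0.05). Leaving out 1 library gave 1 to 27, the highest without uterine replicate 3 and 1 without oviductal replicate 2 or uterine replicate 12. Without uterine replicate 4 it was 9. Library totals moved the median log2 fold change of all miRNAs from -0.02 to -0.31, and upper-quartile factors moved it to 0.19. With library totals only, miR-100-5p stood at -0.63 (edgeR adjusted p 0.549), beside -0.09 with TMM factors. In that setting miR-99a-5p stood at -1.01 and miR-125b-5p at -1.07. The sign turned for miR-100-5p with upper-quartile factors (0.06), for miR-125b-3p by limma-voom (-0.04), and under the title-number replicate block for miR-125b-3p (-0.05) and miR-125b-2-3p (1.69). Leaving out 1 library gave -1.42 to 0.31 for miR-100-5p, -0.77 to 0.27 for miR-125b-2-3p and -0.06 to 1.16 for miR-125b-3p. The log2 ratio of miR-125b-5p to miR-99a-5p turned to -0.32 as a difference of medians and ran from -0.24 to 0.51 with 1 library left out. With 1 library left out, 2 to 4 of the profiles nearest to miR-99a-5p and 1 to 3 of those nearest to miR-125b-5p were the same. The share of miR-125b-5p, -0.353 percentage points as uterine minus oviductal, was -0.586 with repeated rows summed, which counts both precursor rows of this miRNA. Libraries of the same title number had correlations of deviations of -0.116 and -0.111, and the further pair by library name -0.134. Pairs of different number ran from -0.129 to 0.158, so pairs of the same number were not more alike. With 3 uterine libraries these values cannot show whether pools share does. The cause of the other shifts was not tested, and the 2 shallow libraries limit the 3p arms.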
